A study of Mus musculus with 9 samples.

Results

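The transcription factors that carry natural killer (NK) cells from precursors to mature killers were measured here as 10 genes: Tbx21, Eomes, Zeb2, Prdm1, Irf8, Irf2, Gata3, Tox, Nfil3 and Id2. They were taken by symbol, with every probe set (the group of array probes for 1 transcript) that the platform annotation gives to 1 of these symbols alone. This gave 20 of 45101 probe sets, for 10 of 18193 genes named in this way. Sorted NK cells came from the spleen of IL15tg mice and from the spleen and the bone marrow of NKDxIL15tg mice. Each of these 3 groups has 3 biological replicates, with 1 Affymetrix array each. All 9 arrays come from mice that carry the IL15tg transgene, so no NK cells with only their own IL-15 were measured. NKD is a transgenic line known for its deficit of mature NK cells. The series' text calls the NKDxIL15tg cells immature and the IL15tg cells mature. Immaturity cannot be told apart from the NKD genotype, because no immature array lacks NKD, and no IL15tg bone marrow was measured. The labels used here give neither the age of the mice, the promoters of the transgenes, the markers of the sort nor whether mice were pooled.

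NK cells arise from lymphoid progenitors of the bone marrow. In the precursors Nfil3, Id2, Tox and Gata3 act early: Id2 holds back the E proteins that would open other lymphoid fates, and Nfil3 switches NK genes on. The T-box factors T-bet (encoded by Tbx21) and Eomes then set the NK programme together, and Zeb2, Blimp-1 (encoded by Prdm1), Irf8 and Irf2 act in the later steps in which the cells gain full killing capacity and leave for the blood.

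In the spleen, Tbx21, Zeb2, Prdm1, Irf8, Nfil3 and Id2 were lower in the immature cells, Tox was higher, and Eomes, Irf2 and Gata3 did not pass the test. With each gene represented by its brightest probe set, 6 of the 10 genes fell and 1 rose in NKDxIL15tg against IL15tg spleen at an adjusted p of 0.05. Among all 12925 genes tested in this way 4.87% fell, 7.65% rose and 12.5% passed in either direction. The median log2 change of the 10 genes was -0.62, against 0.02 over all genes. The 10 genes were chosen with earlier results of these data known, so their counts and median are descriptions. Between bone marrow and spleen of NKDxIL15tg mice 0 of the 10 genes passed (0.0696% of all genes did; 2 of the 10 had an unadjusted p under 0.05 in limma). In NKDxIL15tg bone marrow against IL15tg spleen the same 7 genes passed in the same directions, where 20.2% of all genes passed (8.7% lower, 11.5% higher). This comparison shares its IL15tg arrays with the first.

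**Figure D1:**
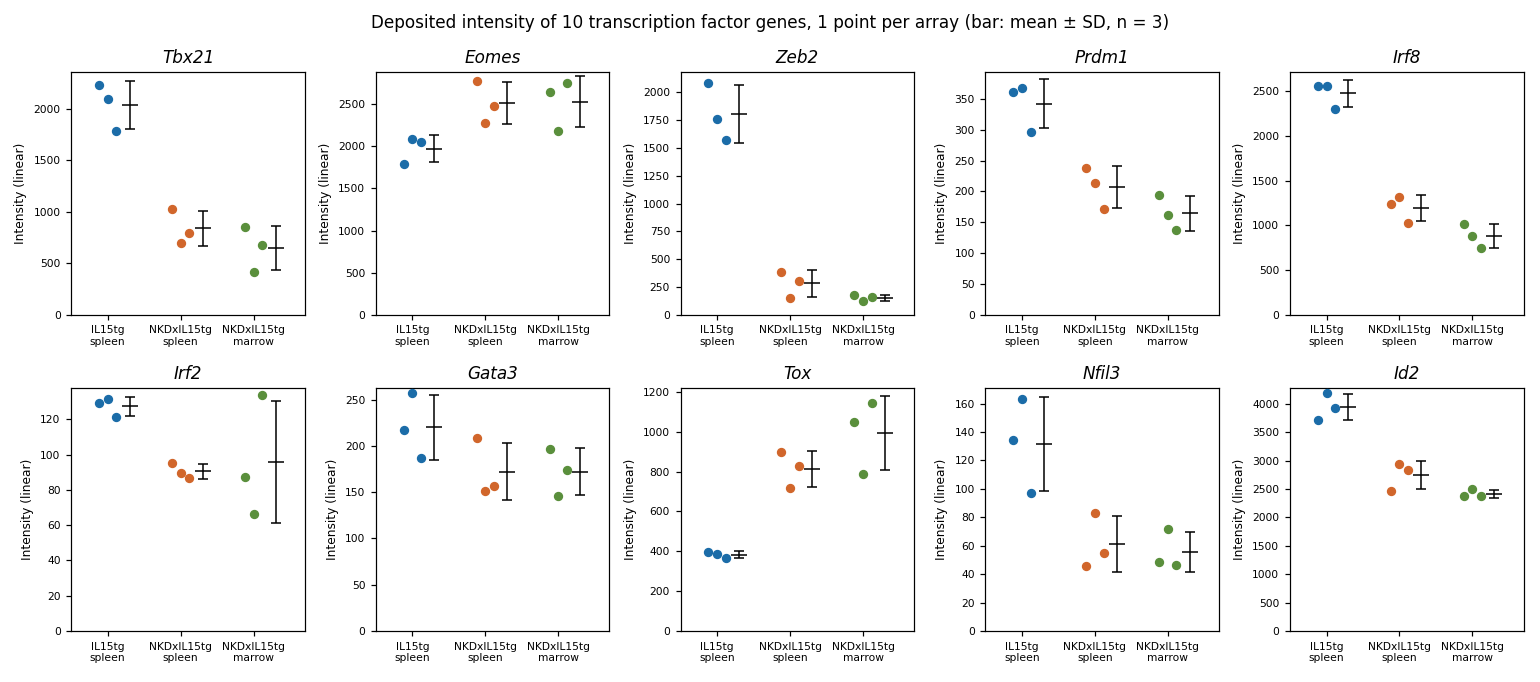
Deposited intensity (linear scale, vertical axis) of the brightest probe set of each of the 10 genes in the 9 arrays, by group on the horizontal axis; points are arrays and black bars are the mean ± SD of 3. The IL15tg points lie above all NKDxIL15tg points for Tbx21, Zeb2, Prdm1, Irf8, Nfil3 and Id2 and below all of them for Eomes and Tox.

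In brightness 8 arrays were similar, with median intensities of 56.6 to 59.1, and NKDxIL15tg bone marrow replicate 3 was brighter at 64.9. Its 75th percentile was 168, against 130 to 140 in the rest. In that array 2080 tested probe sets were more than 2-fold above every other array, against 0 to 6 in each of the rest. It also stood apart from its own group in rank correlation (0.877, against 0.916 to 0.976 in the rest), and counts are given without it below. The difference in log2 signal between the 3' and 5' control probe sets of Gapdh, a measure of RNA length, was 1.99 to 3.21 in IL15tg spleen, 1.62 to 1.87 in NKDxIL15tg spleen and 1.87 to 2.33 in bone marrow. It thus parted the spleen groups. The same difference for beta-actin overlapped between them (1.80 to 2.73 and 1.54 to 2.03) and was lower in bone marrow (0.926 to 1.77). The part of RNA quality in the results was not tested. In RNA from whole sorted populations, fewer cells that express a gene and less RNA per cell cannot be told apart. The sorted cells carried NK markers in all groups: Ncr1, which encodes the NK receptor NKp46, was at a mean intensity of 1642, 1078 and 1156 in IL15tg spleen, NKDxIL15tg spleen and bone marrow (adjusted p = 0.0890 and 0.0907 against IL15tg spleen in limma). Of 10 tested NK markers 3 fell between the spleen groups (the receptor genes Klrk1, Klrd1 and Klre1), 0 rose and 7 did not pass. Among all genes 4.87% fell and 7.65% rose. These 7 include Eomes, which is also a transcription factor of the set described here. The summed intensity of the 10 markers, Eomes included, was 36344 to 38139 in IL15tg spleen, 25008 to 26521 in NKDxIL15tg spleen and 21292 to 24614 in bone marrow.

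The stretches before the start sites of some of these genes are shown because several of the genes moved together and code for factors that bind known DNA letters. They are the 250 bases upstream of a start, from RefSeq on build GRCm38.p6, written 5' to 3' on the strand of the gene. The table used held 9 of the 10 genes. Zeb2 has 4 listed starts, of which the second and the fourth are shown.
Tbx21, chr11:97115332-97115581, strand -: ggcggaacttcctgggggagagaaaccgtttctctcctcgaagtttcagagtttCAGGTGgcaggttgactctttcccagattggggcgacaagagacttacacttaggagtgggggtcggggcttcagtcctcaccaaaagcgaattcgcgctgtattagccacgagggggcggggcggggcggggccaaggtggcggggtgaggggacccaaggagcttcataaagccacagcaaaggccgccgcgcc
Zeb2 start 2, chr2:45113280-45113529, strand -: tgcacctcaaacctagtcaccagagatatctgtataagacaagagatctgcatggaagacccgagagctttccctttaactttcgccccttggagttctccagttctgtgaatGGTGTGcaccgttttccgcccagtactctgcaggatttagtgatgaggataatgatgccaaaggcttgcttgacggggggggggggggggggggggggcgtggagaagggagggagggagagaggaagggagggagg
Zeb2 start 4, chr2:45110278-45110527, strand -: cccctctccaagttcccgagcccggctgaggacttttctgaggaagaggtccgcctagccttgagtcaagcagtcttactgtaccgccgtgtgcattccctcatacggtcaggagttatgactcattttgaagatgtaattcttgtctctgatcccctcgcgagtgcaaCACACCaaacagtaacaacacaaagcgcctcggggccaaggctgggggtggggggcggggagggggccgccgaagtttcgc
Eomes, chr9:118477939-118478188, strand +: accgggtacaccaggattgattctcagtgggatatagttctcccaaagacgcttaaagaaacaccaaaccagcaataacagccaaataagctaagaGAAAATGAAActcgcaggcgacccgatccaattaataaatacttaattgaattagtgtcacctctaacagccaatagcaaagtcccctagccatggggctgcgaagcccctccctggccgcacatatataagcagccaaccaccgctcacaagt
Capitals mark the matches found on either strand. In the Tbx21 stretch they mark CAGGTG, the E-box letters that ZEB proteins bind. In the Zeb2 stretches they mark GGTGTG or its reverse complement, the core of a T-box site. In the Eomes stretch they mark an IRF site, which holds GAAA, any 2 bases and GAAA again.

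Of 32851 upstream stretches of the same length, 16.3% hold GGTGTG on either strand, 17.2% hold CAGGTG and 2.98% hold the IRF letters. A T-box and a ZEB match can share letters. A match describes the letters only, and neither binding nor chromatin was measured here. The T-box letters stand upstream of 3 of the 4 Zeb2 starts (the second and the third windows overlap and hold the same match) and of the Gata3 start. The ZEB letters stand upstream of Tbx21, Prdm1 and 1 of 2 Irf8 starts, the IRF letters also upstream of Irf2, and CAGCTG, an E-box of the E proteins that Id2 restrains, upstream of Nfil3 and Id2 (13% of all stretches). The NFIL3 letters TTANNTAA stand in 5.43% of all stretches, and AGATAA, which Gata3 and its relatives bind, in 9.99%. Neither had a match in these windows.

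Tbx21 encodes T-bet, which NK cells need to complete maturation and to leave the marrow. Its only probe set (1449361_at) read 2227, 2099 and 1781 in the 3 arrays of IL15tg spleen, 1029, 701 and 791 in NKDxIL15tg spleen, and 849, 418 and 676 in NKDxIL15tg bone marrow. Each IL15tg array lay above all 6 NKDxIL15tg arrays, and the NKDxIL15tg groups overlapped. The level fell by 1.29 ± 0.25 on the log2 scale between the spleen groups (limma, ± standard error, 3 arrays a group; 2.44-fold; adjusted p = 0.0113). It was 0.0517 without IL15tg replicate 1. Bone marrow against IL15tg spleen gave -1.71 ± 0.25 (3.26-fold lower, adjusted p = 0.00204).

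Eomes, the other T-box factor of NK cells, maintains the mature NK identity. Its brighter probe set (1426001_at) read 1787, 2083 and 2051 in IL15tg spleen, 2780, 2279 and 2479 in NKDxIL15tg spleen, and 2650, 2183 and 2752 in bone marrow. All 6 NKDxIL15tg arrays were above the 3 IL15tg arrays by this probe set, opposite to Tbx21, but the difference did not pass: 0.35 ± 0.13 between the spleen groups (adjusted p = 0.122) and 0.35 ± 0.13 for bone marrow against IL15tg spleen (adjusted p = 0.0886). The second probe set (1435172_at) overlapped between groups, with 1205 to 1808 in IL15tg spleen, 1687 to 2986 in NKDxIL15tg spleen and 1494 to 2757 in bone marrow (0.56 ± 0.27, adjusted p = 0.228 between the spleen groups).

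The log2 difference Eomes minus Tbx21 within an array is free of the scaling of arrays. It shows whether the genes changed unequally, not which is the more abundant. It was -0.32, -0.01 and 0.20 in IL15tg spleen, 1.43, 1.70 and 1.65 in NKDxIL15tg spleen, and 1.64, 2.39 and 2.02 in bone marrow. No NKDxIL15tg array came near an IL15tg array. The 6 NKDxIL15tg arrays were 1.85 higher on average than the 3 of IL15tg spleen. The pair was chosen with the change of Tbx21 known, so no test is given, and the labels do not say whether spleen and marrow of a replicate number came from 1 mouse.

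**Figure D2:**
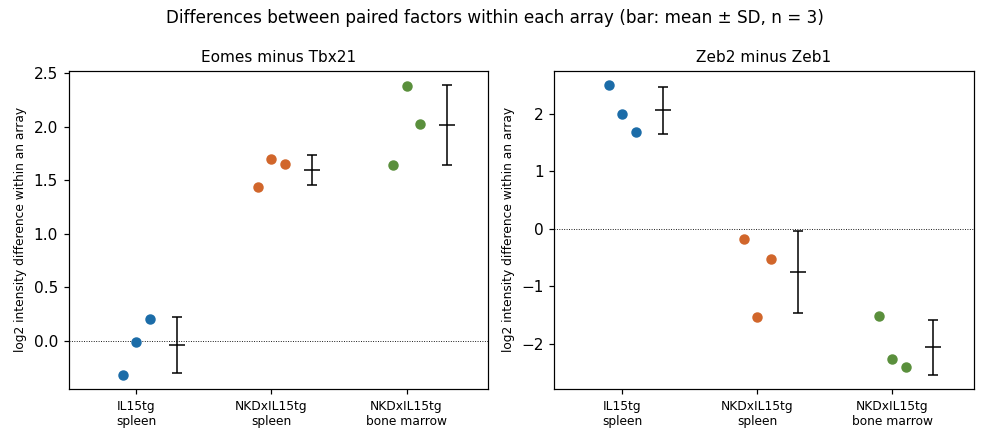
Difference in log2 intensity within each array (vertical axis) for Eomes minus Tbx21 and for Zeb2 minus Zeb1, by group on the horizontal axis; points are arrays and black bars the mean ± SD of 3. Eomes minus Tbx21 lies at -0.32 to 0.20 in IL15tg spleen and at 1.43 to 2.39 in the NKDxIL15tg arrays, and Zeb2 minus Zeb1 at 1.69 to 2.49 and -2.40 to -0.18.

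Zeb2, a zinc finger repressor that works with T-bet in the last steps of maturation, showed the largest change of the 10 genes. Its brightest probe set (1422748_at) read 2087, 1765 and 1572 in IL15tg spleen, 389, 151 and 306 in NKDxIL15tg spleen, and 177, 122 and 158 in bone marrow. The lowest IL15tg array was thus far above the highest NKDxIL15tg array, while the NKDxIL15tg groups overlapped. The level fell by 2.78 ± 0.32 between the spleen groups (6.86-fold, adjusted p = 0.000754). Bone marrow against IL15tg spleen gave -3.58 ± 0.32 (11.9-fold lower, adjusted p = 0.000146).

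Zeb2 has 5 probe sets, and in each of them the 3 IL15tg arrays lay above all 6 NKDxIL15tg arrays. Probe set 1456389_at read 381 to 495 in IL15tg spleen, 49.4 to 116 in NKDxIL15tg spleen and 50.6 to 62.1 in bone marrow (-2.30 ± 0.30, adjusted p = 0.00159 between the spleen groups). Probe set 1458941_at read 285 to 484, 38.9 to 71.5 and 41.0 to 52.1 (-2.76 ± 0.26, adjusted p = 0.000261). The other two lay under the filter on mean log2 intensity and were not tested. Of these, 1434298_at read 129 to 161, 20.0 to 38.5 and 9.61 to 14.4, and 1454200_at read 114 to 132, 12.2 to 29.8 and 9.77 to 16.3. In these dim probe sets the bone marrow arrays lay at or near the floor of 16, so no fold is given. By 1434298_at the bone marrow arrays also lay below all 3 NKDxIL15tg spleen arrays, which the other 4 probe sets do not show.

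**Figure D3:**
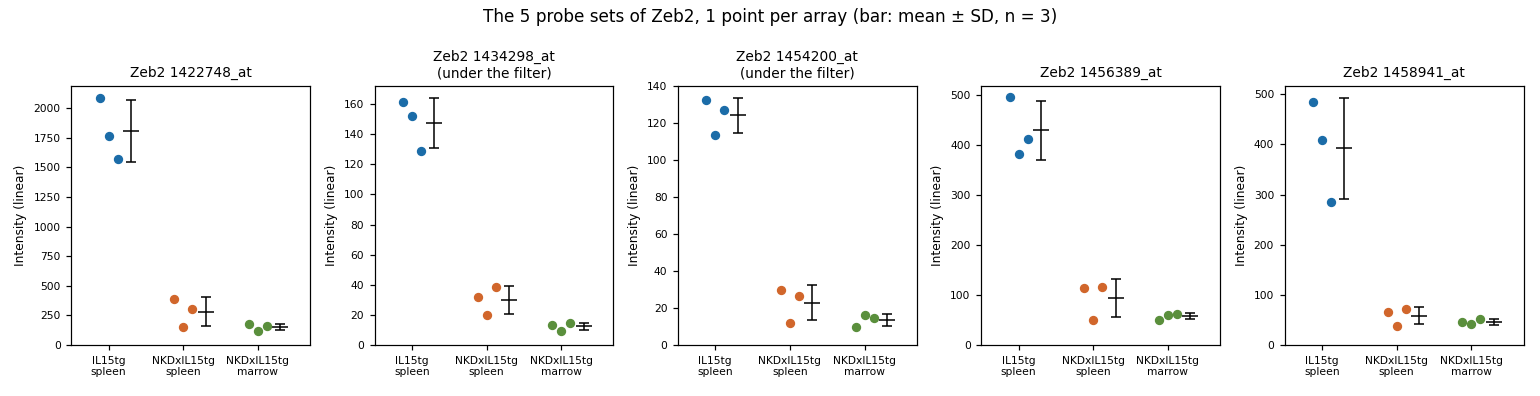
Intensity (linear scale, vertical axis, its own range in each panel) of the 5 probe sets of Zeb2 by group (horizontal axis); points are arrays and black bars the mean ± SD of 3. In each panel the 3 IL15tg points stand above all NKDxIL15tg points, for example 1572 to 2087 against 122 to 389 in the brightest.

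Zeb1, the close relative of Zeb2 that binds the same E-box letters, did not follow it. Its mean intensity was 434, 440 and 638 in IL15tg spleen, NKDxIL15tg spleen and bone marrow, and the spleen difference was 0.03 ± 0.18 (adjusted p = 0.962). Within arrays, Zeb2 minus Zeb1 was 2.49, 2.00 and 1.69 in IL15tg spleen, -0.18, -1.54 and -0.53 in NKDxIL15tg spleen, and -1.51, -2.25 and -2.40 in bone marrow. The NKDxIL15tg arrays differed from the IL15tg arrays by -3.46 on average. This pair, too, was chosen with the change of Zeb2 known, so the difference is a description with no test.

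Prdm1 encodes Blimp-1, a repressor that drives the terminal differentiation of lymphocytes. Its probe set (1420425_at) read 362, 367 and 296 in IL15tg spleen, 238, 213 and 171 in NKDxIL15tg spleen, and 194, 161 and 137 in bone marrow. Each IL15tg array was above all NKDxIL15tg arrays. It fell by 0.73 ± 0.17 between the spleen groups (1.66-fold, adjusted p = 0.0248) and was at -1.06 ± 0.17 in bone marrow against IL15tg spleen (adjusted p = 0.00322). The spleen call is near the threshold: it was lost with scaling to the 75th percentile, with quantile normalization and without any 1 of 4 spleen arrays (IL15tg replicates 1 and 2, NKDxIL15tg replicates 2 and 3), with an adjusted p of up to 0.0949.

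Irf8, an interferon regulatory factor of NK cell maturation that is also abundant in B cells, dendritic cells and monocytes, fell by both of its probe sets. The brighter one (1448452_at) read 2559, 2560 and 2305 in IL15tg spleen, 1234, 1321 and 1030 in NKDxIL15tg spleen, and 1015, 881 and 742 in bone marrow. These are separate ranges for all 3 groups. It fell by 1.06 ± 0.15 between the spleen groups (2.08-fold, adjusted p = 0.00209). The other probe set (1416714_at) read 729 to 1027, 159 to 297 and 133 to 196, and fell by 1.84 ± 0.26 (3.59-fold, adjusted p = 0.00213).

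Some markers of the other cells that carry Irf8 changed in the same arrays, in both directions. Among 13 tested markers of granulocytes and monocytes 5 rose and 1 fell between the spleen groups. Of 10 tested B and plasma cell markers 3 fell between the spleen groups (Cd79a, Cd79b and Ms4a1, components of the B cell receptor and CD20), 0 rose and 7 did not pass. The summed intensity of the 12 markers with a probe set was 2979 to 3808 in IL15tg spleen, 3063 to 3086 in NKDxIL15tg spleen and 2137 to 3560 in bone marrow. Much of this sum is Xbp1, with means of 1614, 1723 and 1311 in these groups. The means of the 3 that fell were 441, 141 and 18.3 for Ms4a1, 262, 59.1 and 22.8 for Cd79b, and 135, 44.0 and 40.6 for Cd79a. Of 12 tested markers of dendritic cells and macrophages 5 fell (the MHC class II genes H2-Aa, H2-Ab1, H2-Eb1 and Cd74, and Batf3) and 0 rose, with a summed intensity of 3739 to 6901, 2640 to 2889 and 1770 to 2331. None of these markers was under the floor in all 3 arrays of any group. In all arrays of a group, 1, 2 and 6 of the 12 B and plasma cell markers were below an intensity of 47.7. The counts are for IL15tg spleen, NKDxIL15tg spleen and bone marrow in turn. For the 14 markers of dendritic cells and macrophages they were 2, 1 and 0. The part of such cells in the fall of Irf8 was not tested.

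Irf2, which NK cells need to reach the late stages, did not pass. Its probe set (1418265_s_at) read 129, 131 and 121 in IL15tg spleen, 95.3, 89.5 and 86.8 in NKDxIL15tg spleen, and 87.5, 66.2 and 134 in bone marrow. The spleen groups did not overlap, as in 38.1% of all tested probe sets. Bone marrow replicate 3 was above every other array, while its group mates were within or below the NKDxIL15tg spleen range. The changes were -0.49 ± 0.22 (adjusted p = 0.180) between the spleen groups and -0.47 ± 0.22 (adjusted p = 0.158) for bone marrow against IL15tg spleen. Without bone marrow replicate 3, which enters both fits through the shared spread, the values were -0.49 ± 0.12 (adjusted p = 0.0194) and -0.74 ± 0.14 (adjusted p = 0.00432). The count of genes past the threshold then was 8 of 10 in each of these comparisons. Over all tested probe sets the number past the threshold was then higher too. It was 5483 against 3725 in the full fit between the spleen groups, and 6342 against 5764 in bone marrow against IL15tg spleen.

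Nfil3 encodes a leucine zipper factor on which the earliest commitment to the NK lineage depends. Its probe set (1418932_at) read 134, 163 and 97.3 in IL15tg spleen, 45.7, 83.2 and 54.8 in NKDxIL15tg spleen, and 48.6, 71.8 and 46.2 in bone marrow. All NKDxIL15tg arrays were below all IL15tg arrays, but these are dim values. Nfil3 fell by 1.12 ± 0.27 between the spleen groups (2.17-fold, adjusted p = 0.0279) and was at -1.24 ± 0.27 in bone marrow against IL15tg spleen (adjusted p = 0.0131). The spleen call was lost with no filter and without any 1 of 4 spleen arrays (IL15tg replicates 1 and 2, NKDxIL15tg replicates 1 and 3), with an adjusted p of up to 0.106. The bone marrow call was lost without IL15tg replicate 1 or 2, with an adjusted p of up to 0.0544.

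Id2, the inhibitor of E proteins, fell by all 3 of its probe sets between the spleen groups. The brightest (1435176_a_at) read 3719, 4182 and 3915 in IL15tg spleen, 2472, 2940 and 2834 in NKDxIL15tg spleen, and 2374, 2501 and 2376 in bone marrow. It fell by 0.52 ± 0.11 (1.44-fold, adjusted p = 0.0133; 0.0698 at most, without IL15tg replicate 2 or with scaling to the 75th percentile). Probe set 1453596_at read 784 to 1128, 425 to 614 and 354 to 388 and fell by 0.88 ± 0.17 (adjusted p = 0.0103). Probe set 1422537_a_at read 698 to 991, 331 to 501 and 354 to 693, with bone marrow replicate 3 at the top of its range, and fell by 1.17 ± 0.27 (adjusted p = 0.0216, and up to 0.0853 without 1 spleen array). In bone marrow against IL15tg spleen that last probe set was at -0.90 ± 0.27 (adjusted p = 0.0429, but 0.0589 with the replicate number as a block and up to 0.139 without 1 array), and the brightest at -0.70 ± 0.11 (adjusted p = 0.00226). The probe sets differ in the size of the fall and share its direction.

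Tox, an HMG-box factor needed for the NK lineage to develop, was the only 1 of the 10 genes that rose. Its brightest probe set (1425484_at) read 398, 388 and 365 in IL15tg spleen, 897, 718 and 830 in NKDxIL15tg spleen, and 1049, 788 and 1144 in bone marrow. Every NKDxIL15tg array was above every IL15tg array. Tox rose by 1.08 ± 0.15 between the spleen groups (2.12-fold, adjusted p = 0.00247), and bone marrow against IL15tg spleen gave 1.36 ± 0.15 (2.56-fold, adjusted p = 0.000542). Probe set 1442039_at read 125 to 179, 270 to 431 and 323 to 424 and rose by 1.20 ± 0.20 (adjusted p = 0.00521). The dim probe set 1425483_at read 31.4 to 34.8, 58.1 to 65.0 and 58.3 to 61.1 and rose by 0.86 ± 0.10 (adjusted p = 0.000754). Its values lie around or below 64, so that with a floor of 64 it no longer passed.

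Tox also marks T cells, in which it is expressed during development and exhaustion. Of 9 tested T cell markers 1 rose between the spleen groups (Cd28, a costimulatory receptor, 2.10 ± 0.16), 0 fell and 8 did not pass. The summed intensity of the 12 markers was 1693 to 1832 in IL15tg spleen, 3060 to 3507 in NKDxIL15tg spleen and 2734 to 3649 in bone marrow, and 3 of them were below an intensity of 47.7 in all arrays of each group. The part of T cells in the rise of Tox was not tested.

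Gata3, a zinc finger factor of T cells and of NK cell maturation and exit from the marrow, overlapped between all groups. Its probe set (1448886_at) read 217, 257 and 187 in IL15tg spleen, 208, 152 and 157 in NKDxIL15tg spleen, and 197, 146 and 174 in bone marrow. The changes against IL15tg spleen were -0.36 ± 0.18 (adjusted p = 0.235) and -0.35 ± 0.18 (adjusted p = 0.187). Zeb2 and Gata3 lie on chromosome 2 per RefSeq, as does Atf2, the gene at which the NKD transgene was reported to have inserted. Any effect of the insertion on Zeb2 or Gata3 was not tested.

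**Figure D4:**
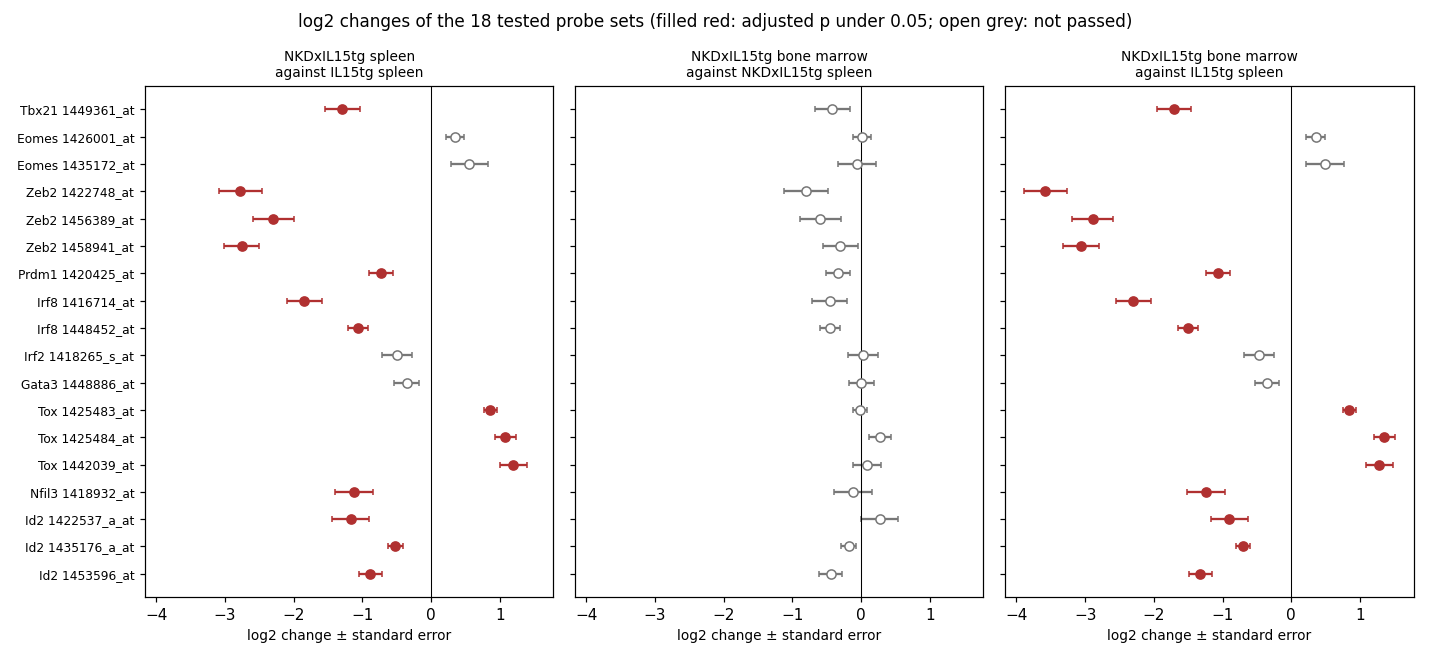
Fitted log2 change ± standard error (horizontal axis) of the 18 tested probe sets (vertical axis) in the 3 comparisons; filled red points passed an adjusted p of 0.05 and open grey points did not. In the panels against IL15tg spleen 14 of 18 points are red, 11 to the left of 0 and 3, all of Tox, to the right; in the panel of bone marrow against NKDxIL15tg spleen 0 are red.

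Over probe sets, 14 of the 18 tested passed between the spleen groups (11 lower, 3 higher), where 13.8% of all 27022 tested probe sets passed (7.04% lower, 6.75% higher). Zeb2, Irf8, Id2 and Tox each gave more than 1 of these 14, so the probe sets are not independent. The 2 spleen groups did not overlap in 16 of the 18, against 38.1% of all tested probe sets. In bone marrow against IL15tg spleen the same counts of 11 lower and 3 higher were found, where 21.3% of all passed (11.5% lower, 9.79% higher). The count of genes past the threshold was 7 of 10 in the full fit. It was 4 without IL15tg replicate 1 (Zeb2, Irf8, Id2 and Tox) and 4 without IL15tg replicate 2 (Tbx21, Zeb2, Irf8 and Tox). It was 5 to 8 without any other array. Zeb2, Irf8 and Tox, by their brightest probe sets, passed in all 19 alternatives run on single probe sets in the 2 comparisons against IL15tg spleen, with the highest adjusted p at 0.0148.

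The bone marrow comparison asked whether immature NK cells of the marrow differ from those of the spleen in these factors. With the organs set against each other, 0 of 18 tested probe sets passed in limma, as did 0.0518% of all tested probe sets (14 of 27022, or 23 with the replicate number as a block). At an unadjusted p under 0.05 there were 3 of 18, against 10.4% of all. These were the brightest of Zeb2 (-0.80 ± 0.32, adjusted p = 0.462), the brighter of Irf8 (-0.45 ± 0.15, adjusted p = 0.427) and Id2 1453596_at (-0.44 ± 0.17, adjusted p = 0.459). The last 2 did not overlap between the groups, where 16.1% of all probe sets did not. Tbx21 was at -0.42 ± 0.25 (adjusted p = 0.499), Prdm1 at -0.34 ± 0.17 (adjusted p = 0.482) and Tox at 0.27 ± 0.15 (adjusted p = 0.489). Eomes (0.01 ± 0.13), Irf2 (0.02 ± 0.22), Gata3 (0.00 ± 0.18) and Nfil3 (-0.12 ± 0.27) were close to 0, and the sign of each turned under some of the alternatives. A p above the threshold does not show that the organs are alike in these factors.

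Some granulocyte genes differed between the same groups. Of 13 tested markers of granulocytes and monocytes 5 rose and 1 fell in NKDxIL15tg against IL15tg spleen, and 3 rose (Mpo, Prtn3 and Ctsg, of neutrophil granules) and 10 did not pass in bone marrow against NKDxIL15tg spleen. The summed intensity of the 15 markers was 1689 to 2091 in IL15tg spleen, 3665 to 8285 in NKDxIL15tg spleen and 12098 to 30753 in bone marrow, with 7, 1 and 0 markers below an intensity of 47.7 in all arrays of the group. The erythroid markers summed to 1888 to 2043, 7724 to 8340 and 5694 to 7665, with 3 of 8 tested higher between the spleen groups. Their part in the changes of the transcription factors was not tested. Of the other innate lymphoid markers 4 had a probe set of their own, 2 were tested and 0 passed in any of the 3 comparisons in limma (0 to 1 at an unadjusted p under 0.05).

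A further list held genes that NK cells are known to switch on through T-bet, Eomes, Zeb2 or Blimp-1. Of 14 such genes, 6 fell between the spleen groups, 0 rose and 8 did not pass, with a median log2 change of -0.996 against 0.02 over all genes. Among all genes 4.87% fell and 7.65% rose. The chemokine receptor Cx3cr1 (-4.66 ± 0.30), the chemokines Ccl3 (-4.30 ± 0.29) and Ccl4 (-3.50 ± 0.15) and the integrin chain Itgam (-2.77 ± 0.13) changed most, and S1pr5, the receptor through which T-bet drives exit from the marrow, went from a mean intensity of 2237 to 592 (-2.01 ± 0.32, adjusted p = 0.00412). Gzmb, which encodes granzyme B, was at -0.24 ± 0.35 (adjusted p = 0.753). Il2rb, an Eomes target that encodes a chain of the IL-15 receptor, was at 0.37 ± 0.25 (adjusted p = 0.404). In bone marrow against IL15tg spleen 9 of the 14 fell and 0 rose, with S1pr5 at -3.92 ± 0.32, where 8.7% of all genes fell. Between the organs 0 of 14 passed in limma, with 6 at an unadjusted p under 0.05, against 10.4% of all tested probe sets. All 6 were lower in bone marrow. They include S1pr5, with a mean intensity of 592 in NKDxIL15tg spleen and 150 in bone marrow (-1.91 ± 0.32, adjusted p = 0.178 in limma). These lists were drawn up with earlier results on these arrays known, so their counts are descriptions.

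Genes that Zeb2 or Blimp-1 are known to restrain in lymphocytes did not rise as a group when these factors fell. Of 5 such genes with a probe set 1 rose and 2 fell between the spleen groups, where 7.65% and 4.87% of all genes did. Il2 (2.20 ± 0.22), a T cell growth factor gene that Blimp-1 represses in T cells, rose, while Il7r (-3.08 ± 0.20), the interleukin 7 receptor of early lymphocytes, and Kit (-2.19 ± 0.15), the stem cell factor receptor, fell. Mean intensities in IL15tg and NKDxIL15tg spleen were 40.5 and 184 for Il2, 497 and 60.7 for Il7r, and 139 and 30.6 for Kit. Each was thus dim in 1 of these groups, and background limits what the size of the change can show. Cd27, which mature NK cells lose, was at 0.04 ± 0.22 (adjusted p = 0.957), and Ccr7, a homing receptor for lymph nodes, at -0.31 ± 0.21 (adjusted p = 0.397).

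Most partner and rival factors of the 10 genes did not pass, though between the spleen groups a larger share passed than among all genes. Of 28 listed, 24 were tested. Between the spleen groups 4 rose, 4 fell and 16 did not pass, with a median log2 change of -0.14. Among all genes tested 7.65% rose, 4.87% fell and 12.5% passed in either direction. Maf, a leucine zipper factor of cytokine production, rose by 1.80 ± 0.12. Bcl6, the repressor that opposes Blimp-1, fell by 1.52 ± 0.29 (mean intensity 184 to 65.1) beside the fall of Prdm1. Hhex, a homeobox factor, fell by 1.14 ± 0.15, and Runx1, of early lymphocytes, by 0.74 ± 0.14. The others that passed were Ikzf3, Myb and Gfi1, which rose, and Stat5a, which fell. Runx3, a partner of T-bet (0.46, adjusted p = 0.240), Ets1, needed for NK development (-0.32, adjusted p = 0.0659), and Stat4, of the IL-12 signal that induces T-bet (-1.14, adjusted p = 0.161), did not pass. In bone marrow against IL15tg spleen 3 rose and 6 fell, where 11.5% and 8.7% of all genes did. Between the organs 0 of 24 passed in limma, with 4 at an unadjusted p under 0.05, against 10.4% of all tested probe sets.

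The E proteins, which Id2 restrains, did not pass between the spleen groups. Tcf3 was at 0.23 (adjusted p = 0.614), Tcf12 at 0.07 (adjusted p = 0.847) and Tcf4 at -0.03 (adjusted p = 0.910). Of the 6 genes in this list only Hes1, a Notch target and repressor, passed, and it fell by 0.63 ± 0.13 (adjusted p = 0.0133). Id1 (-0.16, adjusted p = 0.519) and Id3 (-0.41, adjusted p = 0.399), the relatives of Id2, did not pass. In bone marrow against IL15tg spleen Tcf4 rose by 0.36 ± 0.10 and Hes1 fell by 0.58 ± 0.13. Hes1 had means of 71.0, 45.4 and 46.9 in IL15tg spleen, NKDxIL15tg spleen and bone marrow. Tcf3, Tcf4, Id1 and Id3 were dim too, with means over all arrays of 78.0, 60.1, 57.3 and 76.1. Background limits what these dim values can show.

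**Figure D5:**
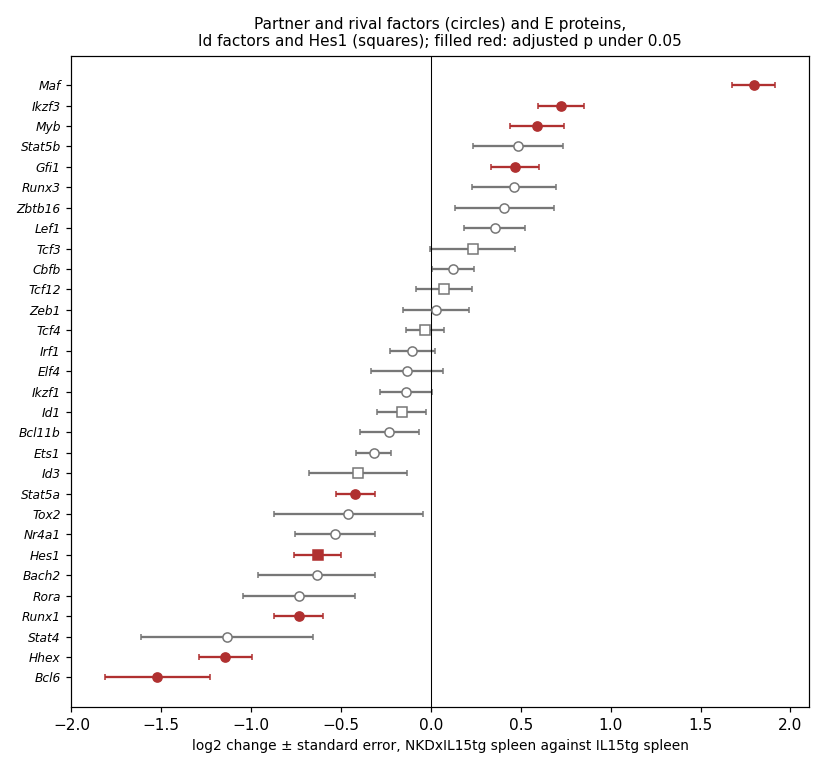
Fitted log2 change ± standard error (horizontal axis) in NKDxIL15tg against IL15tg spleen of the 24 partner and rival factors (circles) and of the 6 E proteins, Id factors and Hes1 (squares), in order of change on the vertical axis; filled red symbols passed an adjusted p of 0.05. Maf is farthest right at 1.80 and Bcl6 farthest left at -1.52, and 9 of 30 symbols are red.

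The genes whose pattern over the 9 arrays was most like that of a factor were read off by Pearson's r of log2 intensity among 1902 or 1903 genes whose SD over the arrays was at least 0.5. All points share the split between IL15tg and NKDxIL15tg arrays, so high values are the rule among genes that differ between these groups, and r is a description only. For Tbx21 they were Cnrip1 (0.986), Bicral (0.979) and Slc41a1 (0.977). For Zeb2 they were Slc5a3 (0.997), an inositol transporter, Ptpn12 (0.997), a phosphatase, and Kcnj8 (0.994), a potassium channel whose mean intensity went from 1333 in IL15tg spleen to 155 and 95.9 in NKDxIL15tg spleen and bone marrow. For Irf8 they were Rasa3 (0.991), a Ras GTPase activator, Ppp1r15a (0.981), of the stress response, and Prdm1 (0.978), itself 1 of the 10 genes. For Eomes they were Spock2 (0.944), Kifc3 (0.944) and Kctd15 (0.939), whose mean intensities were all higher in the NKDxIL15tg groups.

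The order of levels was the same for the genes that fell, by their brightest probe sets: IL15tg spleen was highest, then NKDxIL15tg spleen, then bone marrow. Only the first step in this order passed the test for Tbx21, Zeb2, Prdm1, Irf8, Nfil3 and Id2. For Tox the order was reversed, and again only the step between IL15tg and NKDxIL15tg spleen passed. For Eomes, Irf2 and Gata3 no step between neighbours passed the adjusted threshold in limma. The spleen groups did not overlap for Irf2 or for the brighter probe set of Eomes, as in 38.1% of all tested probe sets.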

How the data were processed

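Total RNA (150 ng) of sorted NK cells was amplified and hybridised to Affymetrix arrays, per the labels' protocols. The values the authors deposited are linear intensities, 1 for each array and probe set, with summarisation and scaling not given in the sources used here. Intensities under 16 (4.36% of values) were set to 16 and log2 values taken, with no further scaling. The 64 control probe sets and those whose mean log2 lay under the 40th percentile (5.58, an intensity of 47.7) were left out, which left 27022. Group means of the 9 arrays were fitted with limma 3.58.1 in R 4.3.3 (lmFit, eBayes, 2-sided, Benjamini-Hochberg adjustment over all 27022, threshold 0.05). The steps were tested on simulated data. P-values measure the spread between these replicates. The number of arrays limits the precision (median standard error 0.15).

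GEO's platform annotation gave 34945 probe sets 1 symbol, 932 several and 9160 none. A gene is represented by its brightest probe set. Every member is described; of the other lists, up to 4 genes with the largest changes among those past the threshold are named in each comparison. S1pr5, and list genes named with an adjusted p above 0.05, with marker genes and further genes past the threshold, were chosen after their values were seen. The members and all lists were chosen with earlier results of these data known.

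Deviations of same-numbered arrays from their group means correlated at 0.123 to 0.163 between the spleen groups and 0.228 to 0.379 between the NKDxIL15tg organs, but at -0.0236 to 0.242 between IL15tg spleen and bone marrow; the labels do not say that a number marks a shared mouse or day. Alternatives were 2 other scalings, other floors and filters, the replicate block, array weights, a fit of 2 groups, a variance trend, the mean over probe sets and leaving out each array. Sequences are from RefSeq (GRCm38.p6). The exact permutation tests planned for the 2 differences within arrays are not reported, because the choice of the pairs fixed their outcome.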

Additional observations from a re-analysis of the deposited data

How the results depend on the processing

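No change of a member past the threshold changed its direction under the alternatives refitted for its probe set (19, or 18 for Nfil3 and Tox 1425483_at; the mean of the probe sets gave counts of genes only): of 1020 refitted member changes 954 kept their direction and their side of the threshold, 33 lost the call, 5 gained it and 28 turned sign, all of these between bone marrow and spleen of NKDxIL15tg mice, where 0 had passed. With scaling to the 75th percentile the turned log2 changes were -0.077 for Eomes 1426001_at, -0.061 for Irf2, -0.080 for Gata3 and -0.000451 for Tox 1442039_at. With quantile normalization they were -0.046 for Eomes 1426001_at, -0.088 for Irf2 and -0.070 for Gata3. With array weights they were -0.045 for Eomes 1426001_at, -0.17 for Irf2 and 0.0026 for Nfil3. Leaving out 1 array gave -0.061 to 0.11 for Eomes 1426001_at, -0.27 to 0.18 for Eomes 1435172_at, -0.10 to 0.15 for Gata3, -0.013 to 0.47 for Id2 1422537_a_at, -0.25 to 0.26 for Irf2, -0.32 to 0.12 for Nfil3, -0.051 to 0.030 for Tox 1425483_at and -0.10 to 0.24 for Tox 1442039_at. The cause was not tested. Over all probe sets, the number past the threshold between the spleen groups was 5685 with array weights and 1809 to 5483 without 1 array. Between the NKDxIL15tg organs it was 4 with a floor of 64, 2 with no filter, 23 with the replicate block and 1 to 15 without 1 array, and in bone marrow against IL15tg spleen 3089 to 6342 without 1 array. Of the 10 genes, 4 to 8 passed between the spleen groups without 1 array. The replicate block changed no member call other than that of Id2 1422537_a_at (adjusted p = 0.0589 in limma). The difference of Eomes minus Tbx21 was 1.71 to 1.97 and that of Zeb2 minus Zeb1 -3.70 to -3.24 without 1 array. Signal over background limits the dim probe sets of Zeb2, Nfil3 and Tox.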
